A study of Mus musculus with 3 samples.

Results

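The proto-oncogene *Myc* and the genes of its partner network were examined in spatial transcriptomes of the thymus. The members were 8 genes of the 54838 listed in the deposited matrices, taken by symbol: *Myc*, the long non-coding RNA gene *Pvt1* beside it, *Mycn*, *Max*, *Mxd4*, *Mxi1*, *Mnt* and *Mga*. Sections came from 2 *Trp53*-/- (KO) females, KO1308 at 21 weeks and KO1134 at 17 weeks, and from 1 wild-type (WT) female, WT1101, at 17 weeks. All 3 mice were C57BL/6. The labels do not say whether a KO section held a lymphoma. The study calls the KO mouse of its spatial analysis pre-neoplastic and lists 1 such KO animal, under the name KO1308, with a depth per bin nearer to that of the section labelled KO1134 here. The study's methods name 2 KO thymus samples. In bins, genes and UMIs its reported KO section is close to the section labelled KO1134 here (12009 bins, 1535 genes and 2591 UMIs per bin). It is far from KO1308 (16140 bins, 791 genes and 1090 UMIs). By these values the description most likely covers the section labelled KO1134. Names and ages here are those of the labels, and the 2 KO names, and so the ages, may be exchanged in one of the sources. Each section was 1 animal on 1 chip. Tissue was permeabilised for 27 min in KO and for 25 min in WT sections, so genotype and this step cannot be told apart. By the labels, the KO1308 mouse was also older than the others.

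MYC protein binds DNA as a dimer with MAX, mostly at the E-box sequence, and raises genes of ribosome assembly, nucleotide synthesis and metabolism. MAX also pairs with MXD4, MXI1, MNT and MGA, which compete with MYC for MAX and for the E-box and repress transcription. MYCN is a close relative of MYC that is used in early development and in a few tissues. *Pvt1* lies downstream of *Myc*, and gains of the region that holds both are known in T-cell lymphoma. In the thymus, *Myc* is used by immature thymocytes as they pass selection of the first receptor chain and divide. Most, but not all, *Mxd* genes are known in cells that leave the cycle.

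The E-box is CACGTG, which reads the same on both strands. RefSeq promoters (GRCm38.p6, 250 bases before to 50 after a gene start) were matched for 6 members, with 8 promoters, and 3 of these promoters held the letters. They are shown because they are the places where the partner genes could themselves carry the network's site. Each line gives 30 bases on the strand of the gene, 5′ to 3′, with the E-box in capitals; *Mxd4* at chr5:34187912-34187941, minus strand, *Mnt* at chr11:74830789-74830818, plus strand, and *Max* at chr12:76962234-76962263, minus strand.
Mxd4: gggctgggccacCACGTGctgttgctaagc
Mnt: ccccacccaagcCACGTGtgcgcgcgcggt
Max: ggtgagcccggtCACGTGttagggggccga
The E-box began 219 bases before the RefSeq start of *Mxd4*, 123 before that of *Mnt* and 3 before that of *Max*. These starts differ from those in the gene coordinates given further on, which come from another annotation. Of all 32817 promoters in the table, 7.15% held it. Among genes with an entry, it was in 16 of the 63 Myc target genes described further on, and in 8.09% of all 27025 genes. A match in such a window is a description of the letters.

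The counts are unique molecular identifiers (UMIs), each standing for 1 captured transcript. Neighbouring spots were pooled on a square grid with a width of 27 µm, and grid squares, called bins here, with at least 300 genes, at most 30% mitochondrial UMIs and a place in a connected patch of tissue were kept. This left 16140 bins in KO1308, 12009 in KO1134 and 27104 in WT1101, with 1090, 2591 and 1497 UMIs per bin on average. A bin of this size can hold several cells, so fewer cells of a type and less RNA per cell cannot be told apart. Levels are CPM, the gene's part of all UMIs of a compartment on the usual per-library scale, with exact Poisson 95% intervals that cover counting error only. Polyadenylated transcripts were captured and each molecule was counted once. Counts were not divided by length, and levels of different genes were not compared, apart from a share of UMIs within the network that was set side by side between sections. Bins were sorted by marker genes into fat, B-cell zones, medulla and CD3-positive bins outside these, and none of the members was used for this. The CD3-positive bins were 5285, 1915 and 14343 in KO1308, KO1134 and WT1101. The WT section had no B-cell zone bins and 7 fat bins, so these compartments were described in the KO sections.

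KO1134 stood apart in its T-cell receptor genes: in 7732 of its 9483 thymus-area bins *Trbc1* exceeded *Trbc2* in the surrounding bins, against 123 of 13393 in KO1308 and 26 of 24689 in WT1101. *Trp53*, which encodes p53 (chr11:69580359-69591873, plus strand), was counted at 79.2 CPM in CD3-positive bins of WT1101, 23.2 in KO1308 and 12.2 in KO1134. The KO sections were at 0.293 and 0.154 times the WT level, and since the position of the deleted part was not used here, the remaining UMIs cannot be placed inside or outside it. CD3-positive bins also held markers of other cells at unequal levels. The 10 medulla genes summed to 515, 157 and 110 CPM in KO1308, KO1134 and WT1101, the 3 plasma cell genes to 970, 499 and 209, the 4 macrophage genes to 495, 646 and 308, and the 4 fibroblast genes to 251, 209 and 89.8. The 6 fat genes summed to 151, 98.8 and 9.34 CPM, and the 6 thymus-area genes to 1865, 812 and 2238. None of these genes was at 0 in any of the 3 sections. The part of these cells in the differences below was examined by leaving their bins out, as given there.

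*Myc* (ENSMUSG00000022346; GRCm38, chr15:61985391-61990374, plus strand) was counted at 144 CPM in CD3-positive bins of KO1308 (95% interval 135 to 154, 865 UMIs), at 74.9 in KO1134 (67.4 to 83.1, 362 UMIs) and at 38.0 in WT1101 (35.6 to 40.6, 907 UMIs). The order KO1308, KO1134, WT1101 held with no overlap of the intervals. Against WT1101, the level was 3.80 times as high in KO1308 (exact conditional binomial 95% interval 3.46 to 4.17) and 1.97 times in KO1134 (1.74 to 2.23). The KO sections also differed from each other, by 1.93 times (1.70 to 2.18).

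In the medulla the pattern was not the same in both KO sections. *Myc* stood at 157 CPM in KO1308, 56.2 in KO1134 and 49.9 in WT1101, which gave ratios to WT of 3.15 (2.67 to 3.73) and 1.13 (0.944 to 1.34). The interval for KO1134 included 1 with bins of this width. It did not with 20 µm bins (1.27, 1.04 to 1.55) or with mitochondrial, immunoglobulin, haemoglobin and ribosomal protein genes left out of the total (1.19, 1.001 to 1.42). With one medulla limit for all sections the ratio fell below 1 (0.948, 0.746 to 1.21). With 50 µm bins the interval also included 1 (1.13, 0.954 to 1.34). The 10 medulla genes summed to 2406, 1169 and 902.5 CPM in the medulla of KO1308, KO1134 and WT1101. In bins of no named compartment, *Myc* was at 158, 81.5 and 41.4 CPM, close to the levels of CD3-positive bins in each section.

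Over sections, the difference between genotypes could not be separated from the spread between animals. With 2 KO and 1 WT section, edgeR's quasi-likelihood test in CD3-positive bins gave *Myc* a log2 fold change of 1.38 ± 0.53 (SE), with an adjusted p of 0.476 over 17330 genes. None of the 8 members passed, and 0.0346% of all genes tested did (6 genes); 2 members, *Myc* and *Mxd4*, had an unadjusted p under 0.05. The fit had 1 residual degree of freedom, and the lone WT section was assumed to vary like the KO sections.

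A call by size was therefore set beside it: a CPM ratio past 1.5-fold in the same direction in both KO sections. By this rule 19.4% of all genes tested were higher and 5.87% lower, which is the background for the counts that follow. Both ratios share the same WT section. Of the 8 members, 2 were higher (*Myc* and *Pvt1*) and 2 lower (*Mxd4* and *Mycn*). The call of *Mycn* was lost in KO1134 with 20 µm bins (0.776 times) and with thymus-area bins in place of CD3-positive bins (0.929 times). That of *Myc* was lost in KO1134 with 50 µm bins (1.48 times) and without bins that held a dividing cell marker (1.13 times). Without the latter bins *Pvt1* was at 1.47 times in KO1308 and 1.36 in KO1134, so its call was lost. It was also lost without bins of other cell markers (1.08 times in KO1308). *Max*, *Mxi1*, *Mnt* and *Mga* met neither limit.

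*Pvt1* (ENSMUSG00000097039; chr15:62037986-62378096, plus strand) was sparse, at 6.67 CPM in CD3-positive bins of KO1308 (40 UMIs), 4.97 in KO1134 (24 UMIs) and 3.06 in WT1101 (73 UMIs). Its ratio to WT was 2.18 (1.45 to 3.25) in KO1308 and 1.62 (0.979 to 2.61) in KO1134, so the second interval included no difference. *Mycn* (ENSMUSG00000037169; chr12:12936093-12941914, minus strand) rested on 14, 13 and 110 UMIs, or 2.34, 2.69 and 4.61 CPM. Its ratio was 0.507 (0.268 to 0.887) in KO1308 and 0.584 (0.301 to 1.04) in KO1134. At these counts *Mycn* and *Pvt1* levels were known only within wide intervals.

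*Max* (ENSMUSG00000059436; chr12:76937269-76962201, minus strand), the shared dimer partner, was at 158 CPM in KO1308, 139 in KO1134 and 212 in WT1101. It was lower than WT in both KO sections, at 0.747 times (0.696 to 0.801) and 0.656 times (0.604 to 0.711). The same order was found in the medulla, at 166, 149.5 and 236 CPM. In the edgeR fit the log2 fold change was -0.64 ± 0.49 with an adjusted p of 0.743.

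Of the MAX-binding repressors, *Mxd4* (ENSMUSG00000037235; chr5:34173883-34187720, minus strand) had the lowest ratios. It was at 86.4 CPM in CD3-positive bins of KO1308, 61.1 in KO1134 and 147 in WT1101, and the 3 intervals did not overlap. The ratios to WT were 0.589 (0.536 to 0.646) and 0.416 (0.368 to 0.469), and the edgeR log2 fold change was -1.13 ± 0.46 with an adjusted p of 0.50. An antisense gene, *Gm42846*, overlaps *Mxd4* and had 1010, 1657 and 5045 UMIs over the tissue of KO1308, KO1134 and WT1101. Whether reads were counted by strand was not given in the sources used here, so the 2 genes may share reads.

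*Mxi1* (ENSMUSG00000025025; chr19:53310518-53375810, plus strand), another repressor, was at 50.6, 34.0 and 65.8 CPM, or 0.768 times (0.677 to 0.869) and 0.516 times (0.437 to 0.606) the WT level. *Mnt* (ENSMUSG00000000282; chr11:74830920-74845725, plus strand), which is expressed in dividing and resting cells alike, was at 31.2, 28.98 and 33.7 CPM. Its ratios of 0.926 (0.786 to 1.09) and 0.860 (0.714 to 1.03) did not differ from WT beyond counting error. *Mga* (ENSMUSG00000033943; chr2:119897228-119969581, plus strand), the scaffold of a Polycomb complex, was at 85.8, 75.2 and 79.7 CPM with ratios of 1.08 (0.975 to 1.19) and 0.943 (0.841 to 1.06), and likewise did not.

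**Figure D1:**
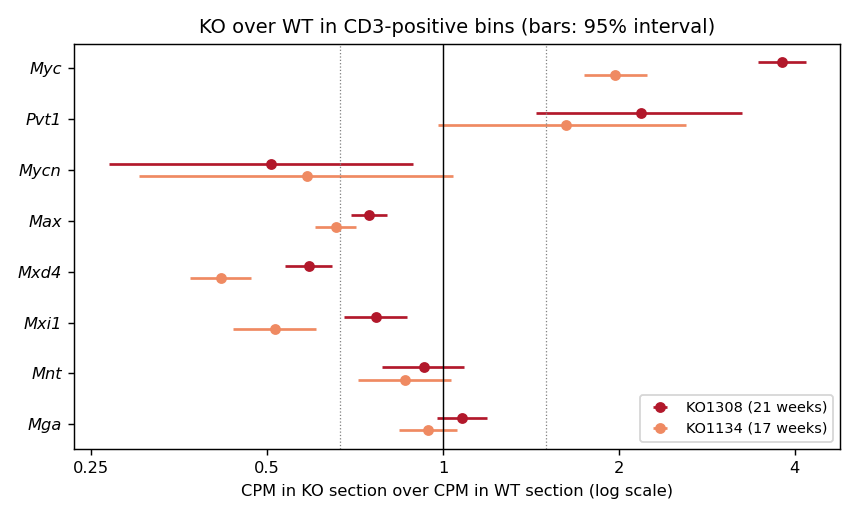
CPM of the 8 members in CD3-positive bins of each KO section divided by that of the WT section, on a log axis; bars are exact conditional binomial 95% intervals, the solid line is a ratio of 1 and the dotted lines mark 1.5-fold. *Myc* lies at 3.80 and 1.97, *Mxd4* at 0.589 and 0.416, and the bars of *Mnt* and *Mga* cross 1.

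The makeup of the network's UMIs also differed between sections. Of the UMIs of *Myc*, *Mxd4*, *Mxi1*, *Mnt* and *Mga* together, *Myc* made up 36.2% in CD3-positive bins of KO1308 (exact binomial 95% interval 34.3 to 38.2), 27.3% in KO1134 (24.96 to 29.8) and 10.4% in WT1101 (9.81 to 11.1). In the medulla the shares were 40.7%, 23.0% and 14.8%. In fat, where *Myc* was low, they were 24.3% in KO1308 and 20.6% in KO1134.

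The ratios were recomputed in CD3-positive bins that held no UMI of the medulla, macrophage, dendritic, fibroblast, endothelial, plasma cell, B-cell or fat markers. This left 726 bins in KO1308, 108 in KO1134 and 4912 in WT1101, with 631749, 184812 and 6464554 UMIs, so sparse genes rest on very few counts. *Myc* was then at 4.37 times the WT level in KO1308 (3.40 to 5.57) and at 1.56 times in KO1134 (0.735 to 2.91). *Mxd4* was at 0.640 times (0.490 to 0.823) and 0.337 times (0.161 to 0.622). *Pvt1* went to 1.08 times in KO1308 and 3.68 times in KO1134, and *Mxi1* to 0.919 and 0.827 times, with intervals that included 1, and *Mnt* to 0.552 times in KO1308 (0.290 to 0.962). *Mycn* was at 0.787 times in KO1308 (0.0905 to 3.14) and 1.34 times in KO1134 (0.0328 to 8.19), so its direction turned in KO1134. For *Myc* and *Mxd4* the ratios in all CD3-positive bins lay inside these intervals in both KO sections, so no shift beyond counting error was seen. With the wide intervals of KO1134, a shift there could have gone unseen. Bins without these markers were also shallower on average, and the part of depth was not tested. For *Myc* in KO1134 the interval came to include 1.

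*Myc* was higher in bins with a dividing cell marker in 1 section. In CD3-positive bins of KO1134 with a UMI of *Mki67*, *Top2a*, *Ccnb1* or *Cdk1*, *Myc* was at 82.1 CPM, against 50.7 in bins without, a ratio of 1.62 (1.21 to 2.19). In KO1308 the levels were 132 and 170 CPM (ratio 0.780, 0.679 to 0.898) and in WT1101 36.6 and 44.8 (ratio 0.817, 0.694 to 0.965), so *Myc* was lower in bins with these markers in both. In bins without a dividing cell marker, *Myc* was 3.79 times the WT level in KO1308 (3.15 to 4.56) and 1.13 times in KO1134 (0.825 to 1.54). The difference between KO1134 and WT was therefore not detectable in those 547 bins. Bins without a marker were also the shallower ones. In KO1308 they were 2208 of 5285 bins with 1915524 of 5993895 UMIs, and KO1134 and WT1101 were alike in this. The part of depth was not tested. Split by *Myc* instead, as given further on, the markers were not lower in Myc-high bins of KO1308 (1.17 times, 0.996 to 1.36) or WT1101 (1.11 times, 0.981 to 1.25). The 4 marker genes together were at 1135, 808 and 1304 CPM in CD3-positive bins of KO1308, KO1134 and WT1101.

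The *Trbc1*-dominant area of KO1134 also held more *Myc*. Among its CD3-positive bins, the 1628 inside the area were at 81.2 CPM (326 UMIs) and the 287 outside at 44.3 (36 UMIs), a ratio of 1.83 (1.30 to 2.66). *Mxd4* was at 62.5 and 54.1 CPM, a ratio of 1.16 (0.836 to 1.63), with no difference beyond counting error. Bins with a UMI of *Cdkn2a*, the gene of the p16 and ARF tumour suppressors, were at 161 CPM of *Myc* against 143 in other CD3-positive bins of KO1308 and at 87.6 against 71.8 in KO1134, with ratios of 1.12 (0.822 to 1.504) and 1.22 (0.946 to 1.56).

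**Figure D2:**
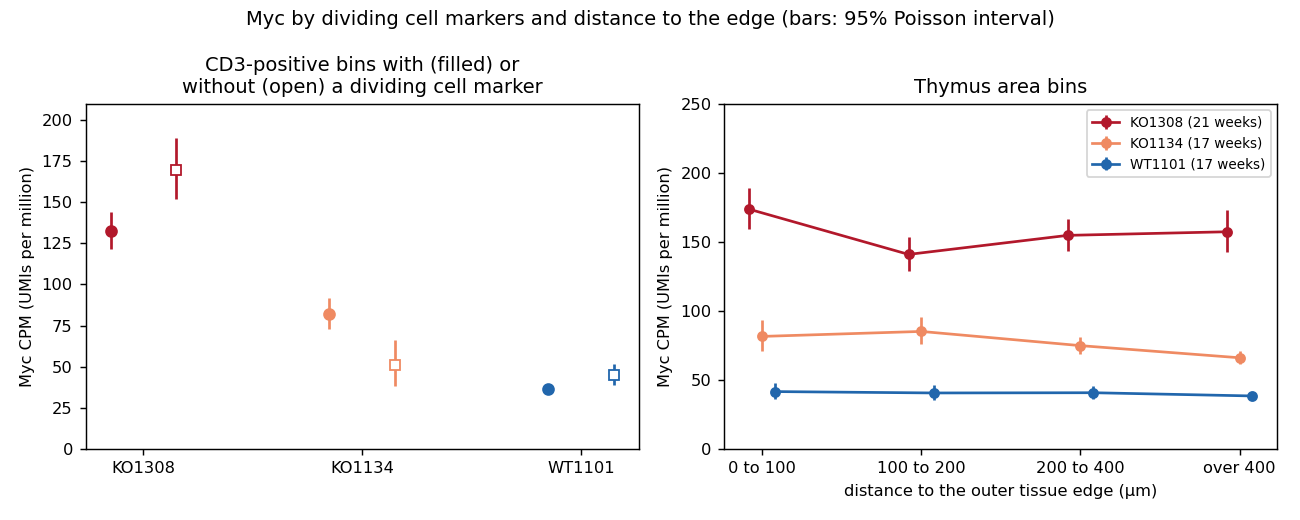
Left, *Myc* CPM in CD3-positive bins with (filled) and without (open) a UMI of 4 dividing cell markers; right, *Myc* CPM in thymus-area bins by distance to the outer tissue edge in µm; bars are Poisson 95% intervals. KO1134 falls from 82.1 to 50.7 CPM without the markers, while the other sections are higher without them.

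Next, the compartments of a section were compared with its own CD3-positive bins, in 1 edgeR fit over the sections with the section as a block. The question was where in the organ the network's genes were used. *Pvt1* was the member that rose: in the medulla it was at 11.8, 12.02 and 7.57 CPM in KO1308, KO1134 and WT1101, higher than in CD3-positive bins of all 3 sections. The log2 fold change was 1.04 ± 0.30 with an adjusted p of 0.0304. It was the 1 member called, while 17.4% of the 17821 genes tested were. The call did not hold in 4 of 16 alternatives, among them leaving out WT1101 (1.02, adjusted p 0.183) or KO1134 (0.98, adjusted p 0.0517), with a range of adjusted p from 0.00758 to 0.183.

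In the B-cell zones *Pvt1* was at 24.9 CPM in KO1308 (24 UMIs) and 10.7 in KO1134 (61 UMIs), against 6.67 and 4.97 in their CD3-positive bins. The log2 fold change was 1.62 ± 0.36 with an adjusted p of 0.0107, and it ranged from 1.25 to 2.11 over the 16 alternatives. WT1101 had no B-cell zone, so the fit rested on the 2 KO sections, and leaving out either left 1. For such a fit only the log2 fold change is given. Here 14.4% of all genes were called, and *Pvt1* alone of the members. *Myc*, its neighbour, was lower there, at 79.8 CPM in KO1308 and 41.1 in KO1134, or 0.553 and 0.549 times the level in CD3-positive bins. Its log2 fold change of -0.64 ± 0.23 missed the threshold (adjusted p = 0.0776). It was -0.70 without KO1134 and -0.78 to -0.52 over the alternatives, and passed with thymus-area bins in place of CD3-positive bins (adjusted p 0.0446). *Mxi1* was at 19.7 and 23.0 CPM with a log2 fold change of -0.77 ± 0.25 (adjusted p = 0.0576). It was -1.30 without KO1134 and -1.30 to -0.48 over the alternatives.

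Fat held the least *Myc*: 37.3 CPM in KO1308 and 35.0 in KO1134, where the sections did not differ beyond counting error (ratio 1.06, 0.706 to 1.60). The log2 fold change against CD3-positive bins was -0.71 ± 0.25 with an adjusted p of 0.0480, and *Myc* was the 1 member called among the 27.6% of all genes. The call was lost in 7 of 16 alternatives. Without KO1308, which left 1 section with fat, the log2 fold change was -0.37, and it ranged from -1.46 to -0.37 over the alternatives. Scaling mattered in fat: with library totals in place of TMM factors the median over all genes moved from -0.16 to -0.85, *Myc* to -1.41, and 6 of the 8 members were called lower. The share of called genes that were higher was 58.2% with TMM and 18.9% with library totals in fat, 62.3% and 78.6% in the medulla, and 46.4% and 29.7% in the B-cell zones.

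*Myc* itself did not differ between medulla and CD3-positive bins in the fit (-0.07 ± 0.18, adjusted p = 0.839), and the sections differed in direction. The CPM ratio was 1.09 in KO1308 (0.960 to 1.24), 0.750 in KO1134 (0.639 to 0.880) and 1.31 in WT1101 (1.14 to 1.52). *Mycn* went to 6.31 CPM in the medulla of KO1134 (31 UMIs), but to 0.907 in KO1308 (2 UMIs) and 1.64 in WT1101 (8 UMIs), and its fitted change had an adjusted p of 0.738. *Max*, *Mxd4*, *Mnt* and *Mga* did not pass in any of the 3 compartments under TMM scaling, and neither did *Mxi1*. With other settings under TMM, *Mxi1* passed in the medulla without KO1134 (adjusted p 0.0291). In the B-cell zones it passed with 100 genes per bin (0.0477) and with 500 genes per bin (0.0442).

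**Figure D3:**
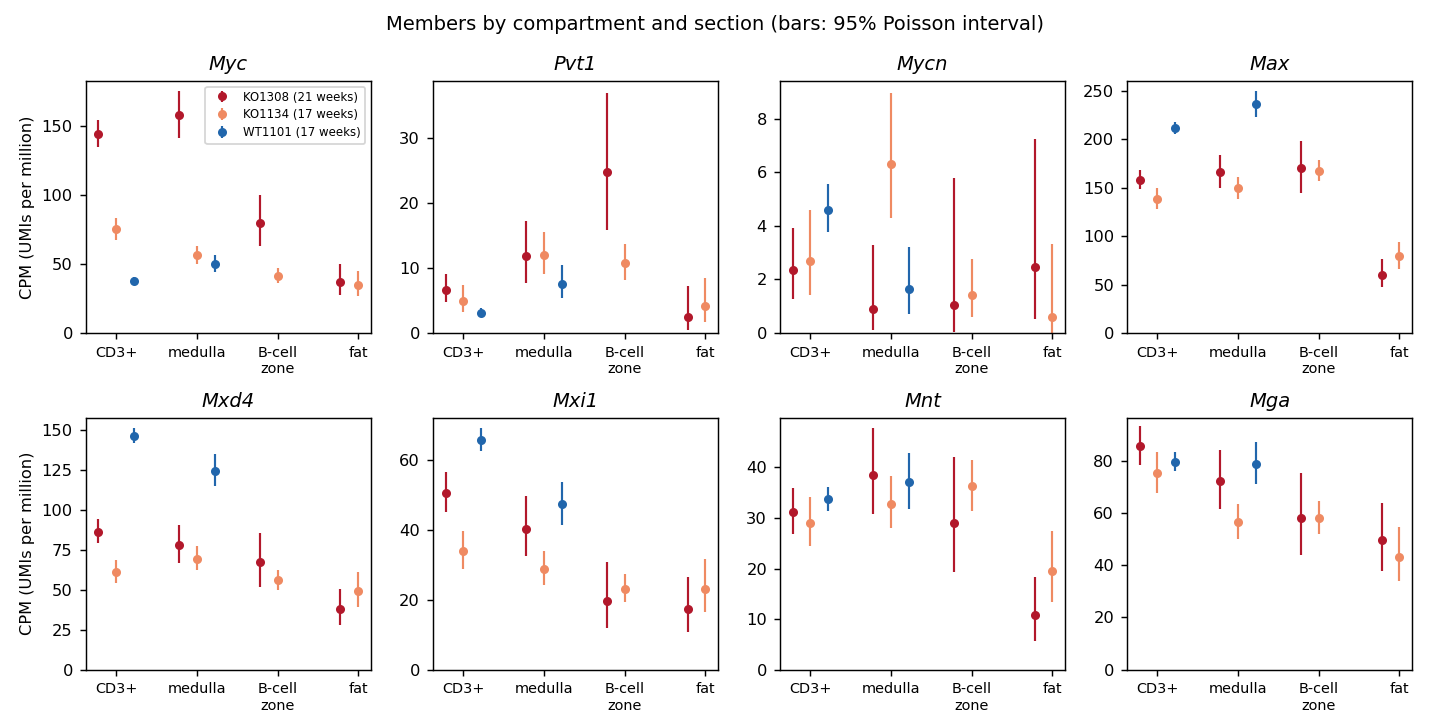
CPM of the 8 members (panels) in CD3-positive bins, medulla, B-cell zones and fat of the 3 sections; bars are Poisson 95% intervals, and WT1101 has no points for B-cell zones and fat. *Myc* falls to 37.3 and 35.0 CPM in fat of the KO sections, while *Pvt1* reaches 24.9 and 10.7 in their B-cell zones.

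Single bins held few *Myc* UMIs. A bin was called Myc-high with 2 or more, which 301 of 16140 bins reached in KO1308, 263 of 12009 in KO1134 and 120 of 27104 in WT1101, and the highest values were 5, 4 and 3 UMIs in 1 bin. Deeper bins reach 2 UMIs more readily: the median bin depth was 1173, 3327 and 2092 UMIs for Myc-high bins and 854, 2546 and 1338 for bins without *Myc*. For this reason each bin was thinned to 500 UMIs. The share of CD3-positive bins with a *Myc* UMI was then 7.11% in KO1308 (exact binomial 95% interval 6.38 to 7.88), 3.70% in KO1134 (2.90 to 4.65) and 1.91% in WT1101 (1.69 to 2.15). Unthinned, the shares were 14.1%, 15.7% and 5.77%, at median depths of 1014, 2623 and 1486 UMIs. Thinning left out 641, 23 and 679 bins.

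The thinned share in fat, where adipocyte genes lead, was 2.24% in KO1308 (1.35 to 3.47) and 2.26% in KO1134 (1.49 to 3.27). The share in CD3-positive bins lay above it in KO1308, and its interval overlapped that of fat in KO1134. The B-cell zones were at 4.30% in KO1308 and 2.03% in KO1134. WT1101 had no fat compartment, so its share had no such background beside it.

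Myc-high bins were spread over the tissue. CD3-positive bins held 31.9% of them in KO1308, 20.9% in KO1134 and 62.5% in WT1101, beside 34.1%, 15.5% and 58.8% of the UMIs. The medulla held 13.6%, 9.51% and 10% of them with 12.5%, 15.8% and 12.04% of the UMIs. Bins of no named compartment held 49.2%, 60.8% and 27.5% of them with 41.0%, 45.0% and 29.1% of the UMIs. Fat held 1.66% and 0.761% of them in the KO sections with 6.87% and 5.42% of the UMIs. The B-cell zones of KO1134 held 7.99% of them with 18.3% of the UMIs.

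The 8 bins around a Myc-high bin had somewhat more *Myc* than those around a bin without in the KO sections. In KO1308 they were at 169 against 137 CPM, a ratio of 1.23, in KO1134 at 84.8 against 64.9 CPM, a ratio of 1.31, and in WT1101 at 38.5 against 39.9 CPM, a ratio of 0.964. Within CD3-positive bins the ratios were 1.15, 1.23 and 1.05. With bins of 50 µm the ratio in KO1308 was 0.909, so a local grouping of *Myc* in that section depended on the bin width.

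Over tiles of 10 × 10 bins (270 µm), *Myc* ranged from 5.18 to 394 CPM in the 164 tiles of KO1308, with a median of 147. In the 117 tiles of KO1134 it ranged from 0 to 148.5, with a median of 63.9, and in the 284 tiles of WT1101 from 0 to 146, with a median of 39.4. More than 100 CPM was reached by 123, 19 and 7 tiles. The levels rest on at most 38, 40 and 17 *Myc* UMIs per tile, so single tiles are known only roughly.

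**Figure D4:**
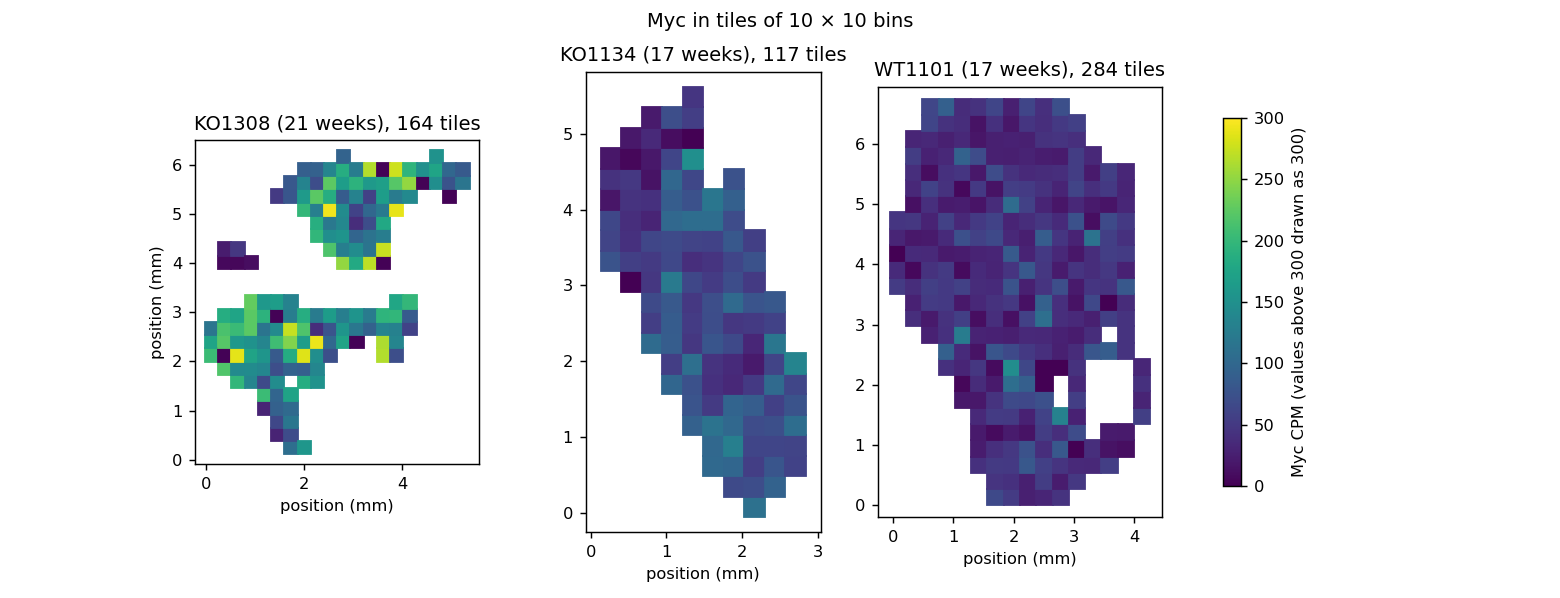
*Myc* CPM in tiles of 10 × 10 bins drawn at their position in each section (axes in mm, colour scale ending at 300 CPM). In KO1308 (median 147 CPM) 123 of 164 tiles exceed 100 CPM, while KO1134 and WT1101 have medians of 63.9 and 39.4 CPM.

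*Myc* was found at all depths of the tissue. In thymus-area bins of KO1308 it was at 173.5 CPM within 100 µm of the outer edge, 141 at 100 to 200 µm, 155 at 200 to 400 µm and 157 deeper inside, and the interval of the outermost zone (158.9 to 188.9) lay above that of the zone next to it (128.8 to 153.5). In KO1134 the levels were 81.4, 85.0, 74.7 and 65.9 CPM, and the intervals of the innermost zone (61.3 to 70.8) and of the first (70.9 to 93.1) did not overlap. In CD3-positive bins of KO1134 the levels were 77.0, 69.5, 80.8 and 72.1 CPM with overlapping intervals, so the fall inward was not seen there. In WT1101 the levels in thymus-area bins were 41.4, 40.4, 40.6 and 38.3 CPM, with overlapping intervals. Over all tissue, Myc-high bins lay further from the edge than bins without *Myc* in KO1308 (medians of 256 and 181 µm) and KO1134 (362 and 330 µm). The size of this gap depended on the bins used. In KO1308 it was 59.9 µm in thymus-area bins and 21.9 µm in CD3-positive bins, and in KO1134 10.2 and 69.0 µm. In thymus-area bins the CPM was nonetheless highest in the outermost zone of KO1308 and lowest in the innermost zone of KO1134. Over all tissue of WT1101, Myc-high bins lay closer to the edge than bins without *Myc*, with medians of 423 and 657.5 µm, although the CPM did not change with distance. Myc-high bins were also the deeper ones in every section, and the part of depth was not tested.

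In CD3-positive bins, what Myc-high bins held beside *Myc* was compared with bins without it. *Max* was at 77.9 against 156 CPM in KO1308 (ratio 0.50, 0.239 to 0.924, on 10 UMIs in Myc-high bins), 183 against 135 in KO1134 (1.36, 0.917 to 1.94) and 213 against 211 in WT1101 (1.01, 0.715 to 1.38). *Mxd4* was at 101 against 89.0 CPM, 102.9 against 61.0, and 185.5 against 148, with every interval including 1. *Trp53* in WT1101 was at 136 against 77.9 CPM (1.75, 1.13 to 2.60), on 25 UMIs in Myc-high bins. The dividing cell markers were at 1.17 times (0.996 to 1.36), 1.21 times (1.03 to 1.41) and 1.11 times (0.981 to 1.25) the level of bins without *Myc*. The summed Myc target genes described further on were at 1.10 times (1.04 to 1.17), 1.04 times (0.985 to 1.09) and 1.10 times (1.05 to 1.16).

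Over the tiles, the rule on likeness named the 5 genes whose Spearman correlation with *Myc* was highest in the section where it was weakest, out of the 6975 genes that reached 500 UMIs in every section. These were *E230029C05Rik*, *Hsp90b1*, *Gm6030*, *Copz1* and *Tmem255b*. *Hsp90b1*, a chaperone of the endoplasmic reticulum, had rho values of 0.32, 0.40 and 0.21 in KO1308, KO1134 and WT1101, and *Copz1*, a coat protein of Golgi vesicles, 0.34, 0.50 and 0.19. *E230029C05Rik* had 0.53, 0.26 and 0.22, *Gm6030* 0.58, 0.29 and 0.21, and *Tmem255b* 0.19, 0.19 and 0.21. The tiles share a library and differ in depth and in cell types, and values this low are no finding. *Mki67*, the proliferation marker, had a rho with *Myc* of 0.68 in KO1134 but -0.04 in KO1308 and -0.14 in WT1101. Of the other members, *Pvt1* had -0.19, -0.19 and 0.003, *Max* 0.003, -0.09 and 0.13, and the highest value was that of *Mga* in KO1134, at 0.25.

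To see whether the level of *Myc* went with its surroundings on chromosome 15, the genes within 3 Mb with at least 50 UMIs in each section were set beside it. Of 14 such genes, 6 were higher than WT past 1.5-fold in both KO sections, 1 was lower and 7 met neither limit. Of all genes tested, 19.4% were higher and 5.87% lower by this rule. Those genes were filtered by counts in CD3-positive bins and the 14 by counts over the section, so the 2 sets are not alike. *Pvt1*, itself a member, was among the 6. The median ratios of the 14 were 1.59 in KO1308 and 1.74 in KO1134. Over all genes tested the median log2 ratio was 0.22 and 0.05. The higher ones were *Gm2682* (3.88 and 4.49 times), *Fam84b* (3.10 and 3.54), *Sqle* (2.54 and 1.85), *Gm30159* (1.91 and 5.44), *Gm41335* (2.02 and 2.19) and *Pvt1*. In CD3-positive bins *Gm30159* rested on 24 UMIs in KO1308 (interval 1.12 to 3.17), and *Pvt1* on 40 in KO1308 and 24 in KO1134. *Sqle* encodes an enzyme of cholesterol synthesis. *Mtss1*, which encodes a regulator of the actin skeleton, was lower, at 109 and 57.6 CPM against 215 in WT1101, or 0.510 and 0.268 times.

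Other genes of the interval were near the WT level or differed between the KO sections. *Fam49b*, which encodes an actin regulator of T cells, was at 339.5, 354 and 341 CPM, or 0.995 and 1.04 times the WT level, and *Asap1* was at 1.16 and 1.39 times. On the near side, *Trib1*, a pseudokinase gene, was at 1.23 and 2.72 times, *Nsmce2* at 0.766 and 1.196, *Washc5* at 1.26 and 1.16, *Gm5045* at 2.35 and 0.787 and *Gm7691* at 0.846 and 2.29. Over the 442 genes of chromosome 15 with at least 50 UMIs in CD3-positive bins of each section, the median log2 ratio to WT was 0.19 in KO1308 and 0.29 in KO1134, beside 0.06 and -0.04 over all 10622 such genes. Chromosome 15 ranked 2 and 1 among the 20 chromosomes in the 2 sections. Chromosome 5, which holds *Mxd4*, ranked 1 and 3, with medians of 0.19 and 0.26, although *Mxd4* itself was lower than WT. DNA content was not measured in these files.

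**Figure D5:**
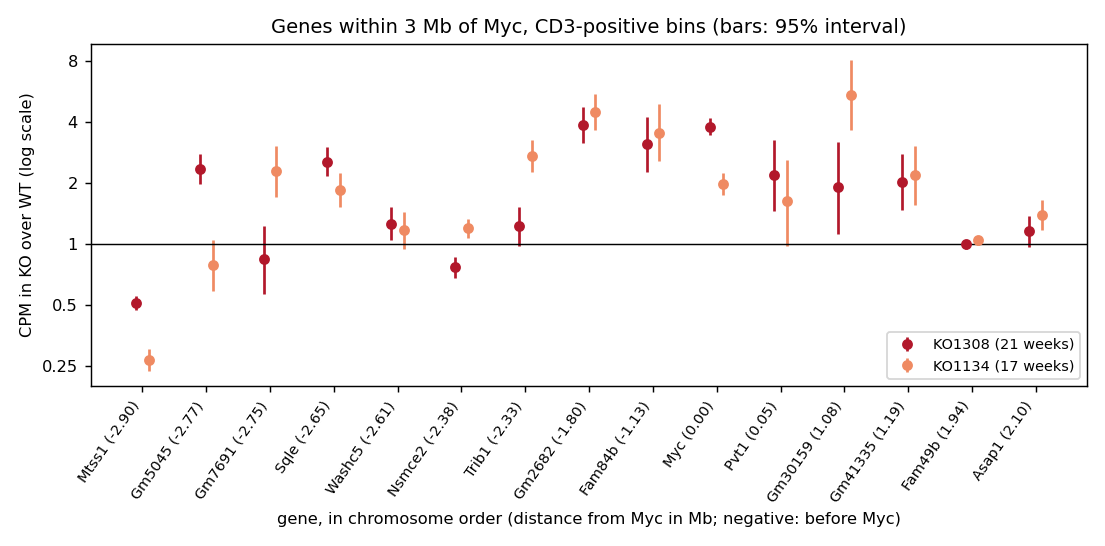
CPM in each KO section over WT in CD3-positive bins for *Myc* and the 14 genes within 3 Mb of it, in chromosome order with the distance from *Myc* in Mb, on a log axis; bars are 95% intervals. *Gm2682* and *Fam84b* reach 3.88 and 3.10 times in KO1308, *Fam49b* stays at 0.995 and 1.04, and *Mtss1* falls to 0.510 and 0.268.

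The wider family was followed in a list of 20 genes: other members that bind MAX or its relative MLX, and the repressor complexes they recruit. Against CD3-positive bins, 2 of the 20 were higher and 4 lower in the medulla, where 10.9% of all genes were called higher and 6.57% lower. *Mycl*, the third MYC gene (log2 fold change 1.37 ± 0.39, adjusted p 0.0303), and *Mxd1* (1.10 ± 0.18, adjusted p 0.00265) were the higher ones. *Mxd3* (-0.94), *Cbx3* (-0.62), *Sin3b* (-0.58) and *Hdac2* (-0.56) were lower. The list's median was -0.14 beside -0.06 over all genes. In the B-cell zones *Hdac2*, *Mxd3* and *Sin3b* were lower (-0.91, -0.80 and -0.67) and none higher, with a median of -0.12 beside -0.03, where 6.66% of all genes were called higher and 7.70% lower.

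In fat 1 of the 20 was higher and 6 lower, with a median of -0.41 beside -0.16, where 16.0% of all genes were called higher and 11.5% lower. The higher one was *Mlxipl*, which encodes the glucose-responsive factor ChREBP that works with MLX. It was at 124 and 71.2 CPM in fat of KO1308 and KO1134 against 2.34 and 1.66 in their CD3-positive bins (log2 fold change 6.71 ± 0.45, adjusted p 3.27e-07). The largest falls were in *Tfdp1* (-1.27), *Mxd3* (-0.79), *Mlxip* (-0.71) and *Rnf2* (-0.68). Between genotypes none of the 20 passed edgeR's test in CD3-positive bins; 1 had an unadjusted p under 0.05, *Mycl*, at 10.5, 6.00 and 2.39 CPM in KO1308, KO1134 and WT1101.

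A second list held 27 cofactors of MYC and genes that set its stability. In the medulla 1 was higher and 7 lower, beside 10.9% and 6.57% of all genes. The higher one was *Bin1*, which encodes a protein that binds MYC and curbs its activity (0.74 ± 0.17, adjusted p 0.0118), and *Aurka* (-1.22), *Cip2a* (-1.09), *Skp2* (-1.05) and *Ruvbl2* (-1.01) fell most. *Aurka* and *Cip2a* encode proteins known to shield MYC proteins from decay, and *Skp2* a ubiquitin ligase subunit; they are also genes of dividing cells, whose 4 markers summed to 475, 395 and 611 CPM in the medulla of KO1308, KO1134 and WT1101 against 1135, 808 and 1304 in CD3-positive bins. The part of dividing cells in these falls was not tested.

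In the B-cell zones 2 of the 27 were higher, *Bin1* (1.47) and *Mycbp2* (0.79), and 6 were lower, among them *Aurka* (-1.99), *Cip2a* (-1.98) and *Skp2* (-1.83), beside 6.66% and 7.70% of all genes. In fat 2 were higher, *Ppp2r5a* (2.04) and *Mycbp* (1.29), and 8 lower, led by *Skp2* (-1.99), *Aurka* (-1.53), *Cip2a* (-1.16) and *Ruvbl1* (-0.87), beside 16.0% and 11.5% of all genes. The list's medians were -0.36, -0.29 and -0.46 in medulla, B-cell zones and fat, beside -0.06, -0.03 and -0.16 over all genes. Between genotypes none of the 27 passed, and none had an unadjusted p under 0.05.

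Last, 71 genes known as targets of MYC were described, chosen for roles in ribosome assembly, nucleotide and amino acid supply, glycolysis and division. In the medulla 19 were lower and 1 higher, with a median log2 fold change of -0.40 beside -0.06 over all genes, of which 10.9% were called higher and 6.57% lower. *E2f2* (-1.27), *Plk1* (-1.17), *Mcm5* (-0.98) and *Mcm4* (-0.80), genes of S phase and mitosis, fell most, and *Ccnd2*, a D-type cyclin, rose (1.45 ± 0.25, adjusted p 0.00290). Without WT1101, 2 were lower and none higher; with library totals 4 were lower.

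In the B-cell zones 13 were lower and 2 higher, with a median of -0.19 beside -0.03, where 6.66% of all genes were called higher and 7.70% lower. *E2f2* (-1.95), *Plk1* (-1.83), *Tfrc*, the transferrin receptor (-1.63), and *Slc7a5*, an amino acid transporter (-1.31), fell most, and *Ccnd2* (1.27) and *Eno1* (0.92) rose. Without KO1134, which left 1 section with a B-cell zone, the median was -0.026 beside -0.053 over all genes. Without KO1308 it was -0.41 beside -0.040. The 4 dividing cell markers summed to 411.5 and 122 CPM in the B-cell zones and to 184 and 221 in fat of KO1308 and KO1134, against 1135 and 808 in CD3-positive bins, and their part in these falls was not tested. In fat 28 were lower and 9 higher, with a median of -0.47 beside -0.16, where 16.0% of all genes were called higher and 11.5% lower. The largest rises were in the glycolysis genes *Hk2* (3.90), *Eno1* (2.77) and *Pkm* (1.74) and in *Phb* (1.60), and after *Tert* the largest falls were in *Slc7a5* (-2.37), *Mcm5* (-1.74) and *E2f2* (-1.47). *Tert*, which encodes telomerase, had no UMI in fat of either KO section, which allows up to 2.48 CPM in KO1308 and 1.78 in KO1134, against 6.51 and 2.07 CPM in their CD3-positive bins. With library totals 54 targets were lower in fat, and with a fat limit of 2% the median was -0.82 beside -1.04 over all genes, with 6 lower and 3 higher.

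Between genotypes none of the 71 targets passed edgeR's test in CD3-positive bins; 2 had an unadjusted p under 0.05, *Ccnd2* and *Srm*. By size, 17 of the 71 were past 1.5-fold higher in both KO sections and none lower past it, beside 19.4% and 5.87% of all genes, so the count of higher genes was near that background. The median log2 CPM ratio was 0.31 in KO1308 and 0.47 in KO1134, beside 0.22 and 0.05 over all genes. Over the 10622 genes with at least 50 UMIs in CD3-positive bins of each section, which leave out sparse genes, it was 0.06 and -0.04. The targets together took 8221, 8559 and 7631 CPM in KO1308, KO1134 and WT1101. The list thus stood further from the median of all genes in KO1134, whose *Myc* level was the lower of the 2 KO sections.

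Some of the 17 are named here after their values were seen. *Ccnd2* was at 40.7, 37.3 and 15.0 CPM in KO1308, KO1134 and WT1101, or 2.71 and 2.48 times the WT level. *Srm*, an enzyme of polyamine synthesis, was at 54.2, 82.6 and 27.8 CPM, or 1.95 and 2.97 times. *Shmt2*, a mitochondrial enzyme of one-carbon metabolism, was at 91.8, 101 and 47.0 CPM, or 1.95 and 2.15 times, and *Cad*, which starts pyrimidine synthesis, at 45.7, 58.6 and 25.4 CPM, or 1.80 and 2.31 times.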

How the data were processed

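Thymus sections of 2 *Trp53*-/- and 1 wild-type mouse were profiled with BMKMANU S1000 chips. The authors processed reads with BSTMatrix 2.0 and aligned them with STAR 2.5.1b, and per the labels the build was GRCm 38. The deposited matrices hold raw UMI counts per gene and spot, neither normalized nor filtered, with totals of 21089885 in KO1308, 31237062 in KO1134 and 41581477 in WT1101. The annotation and the strand used in counting are not given in the sources used here. Spot names are position codes of the chip that libraries share by name: 244006 between KO1308 and KO1134, 903622 between KO1308 and WT1101 and 345766 between KO1134 and WT1101.

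Counts were summed in bins of 27 µm, and bins were assigned in this order: fat (fat genes at least 0.5% of UMIs), B-cell zone, medulla (marker share at least 2 times that of the section) and CD3-positive. Summed counts per section and compartment were tested with edgeR 4.0.16 (quasi-likelihood test, TMM factors, filterByExpr, Benjamini-Hochberg adjustment over all genes tested, two-sided, threshold 0.05) in R 4.3.3, with DESeq2 1.42.0 as an alternative. A compartment with under 50 bins was left out of the fit. Each KO section was set beside WT by its CPM ratio. Poisson, binomial and ratio intervals are exact at 95% and cover counting error only; p-values over sections rest on 1 animal each. The code was checked on simulated counts. Scripts used Python 3.11.15.

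The members and gene lists were chosen with earlier results of these data known. Named genes were the 8 members, the 5 genes most like *Myc* over tiles, and of each list the genes passing the test, up to the 4 largest in each direction. One gene that this rule names is not reported here. Alternatives covered bin width, bin filters, compartment limits, scaling, low counts, thinning depth and leaving out each section; leaving out bins with dividing or other cell markers was chosen after seeing the data. No sequence of *Myc* or *Pvt1* promoters is shown.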

Additional observations from a re-analysis of the deposited data

How the results depend on the processing

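The labels match no KO mouse to a WT mouse, so the genotypes were compared without pairing. Compartments were compared within sections, with the section as a block. Values below follow the order of the text, and the cause of each shift was not tested unless the setting itself leaves out genes, bins or sections.

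For *Myc* in fat, the log2 fold change no longer passed with 50 µm bins (-0.60), 100 genes per bin (-0.72), one medulla limit (-0.67), a fat limit of 2% (-1.46) and both DESeq2 size factors and the DESeq2 Wald test (-0.68), and ranged from -1.02 to -0.37 when a section was left out. For *Pvt1* in the medulla it no longer passed with 20 µm bins (0.73) and 50 µm bins (0.91), and leaving out a section gave 0.98 to 1.14. *Myc* in the B-cell zones passed against thymus-area bins (-0.73), and leaving out a section gave -0.70 to -0.52.

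*Myc* in the medulla, which had not passed, changed sign with 50 µm bins (0.03), 100 genes per bin (0.046), CD3-positive bins assigned first (0.021), one medulla limit (0.0049) and library totals (0.052), and leaving out a section gave -0.18 to 0.16. None of the following passed either. *Max* in the medulla changed sign with 100 genes per bin (0.0041), CD3-positive first (0.030), fat limit 2% (0.018), DESeq2 size factors (0.032), the DESeq2 Wald test (0.031), library totals (0.11) and totals without mitochondrial, immunoglobulin, haemoglobin and ribosomal protein genes (0.012), and ranged from -0.015 to 0.029 on leaving out a section. *Pvt1* in fat did so with 20 µm (-0.29) and 50 µm bins (-0.55), 100 (-0.25) and 500 genes per bin (-0.59), thymus-area bins (-0.17), library totals (-0.68), totals without those genes (-0.061) and no filter (-0.092), and ranged from -0.43 to 0.27. *Mxd4* in fat did so with 100 genes per bin (0.040; left-out range -0.33 to 0.10), *Mga* in fat with 50 µm bins (0.068) and CD3-positive first (0.14; left-out range -0.16 to 0.14), *Mycn* in fat (-2.44 to 0.95) and *Mnt* in the B-cell zones (-0.051 to 0.45) on leaving out a section, and *Mga* between genotypes without bins of other cell markers (0.18) and with library totals (0.016).

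Of the targets, those higher in the B-cell zones numbered 0 with 50 µm bins, 0 with CD3-positive first, 1 with library totals and 1 to 3 on leaving out a section; those lower there, 6 with CD3-positive first and 6 to 20. In fat, 3 were higher and 6 lower with a limit of 2%, 54 lower with library totals and 18 to 28 lower on leaving out a section. In the medulla, 2 were lower with 50 µm bins, 4 with CD3-positive first, 4 with library totals, and 2 to 27 were lower and 0 to 1 higher on leaving out a section.

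The ratio of *Myc* to WT in CD3-positive bins of KO1308 was 3.12 with 20 µm bins, 4.77 with 50 µm bins and 4.37 without other cell markers. In KO1134 it was 1.48 with 50 µm bins, 1.59 with CD3-positive first, 1.56 without other cell markers and 1.13 without dividing cell markers. In the medulla of KO1308 it was 3.97 with 50 µm bins, 3.74 with 100 genes per bin and 2.54 with 500. The share of bins with *Myc* in KO1308 was 5.62% with 20 µm and 12.5% with 50 µm bins, 4.58% thinned to 300 UMIs and 10.1% to 800. It was 2.30% and 5.83% at these depths in KO1134, and 1.199% and 2.70% in WT1101, with 2.44% in 50 µm bins. The neighbour ratio was 0.909 in KO1308 with 50 µm bins, 1.74 in KO1134 and 0 in WT1101 with 3 UMIs, and 1.16 in KO1134 with *Myc* above 2 on ln(1 + UMIs per 10000).

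Over all genes, the count called between genotypes (6) was 248 with 50 µm bins, 105 with the DESeq2 Wald test, 439 with no filter, 101 without dividing cell markers, 35 with CD3-positive first, 18 with totals without those genes and 14 with 20 µm bins. In the medulla (3109) it was 1271 with 50 µm bins, 1434 with CD3-positive first and 293 to 4268 on leaving out a section. In the B-cell zones (2559) it was 1563, 1111 and 1616 to 3765 in the same order, and in fat (4914) 997 with a limit of 2%, 9089 with library totals and 3906 to 5007 on leaving out a section.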
